A study of Mus musculus with 6 samples.

Results

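The nuclear genes for the subunits of respiratory complexes II to V, with cytochrome c, were taken from the deposited gene table as protein-coding genes named Sdha to Sdhd, Cyc1, Cycs, or with a name that begins with Uqcr, Cox4 to Cox8 or Atp5. The table lists 43346 genes, and 49 met this rule: 4 of complex II, 9 of complex III, cytochrome c, 18 of complex IV and 17 of complex V. The rule uses names only. RNA was sequenced from the gastrocnemius of 6 male mice aged 6 months, 1 library per mouse. All 6 mice were Vdrfl/fl.actin iCre: exon 3 of the vitamin D receptor gene lay between loxP sites, and the transgene Tg(ACTA1-cre/Esr1*)2Kesr supplied a tamoxifen-dependent Cre under the skeletal actin promoter, so that deletion is directed to muscle fibres and not to the other cells of the muscle. The knockout group (3 mice) received tamoxifen at 100 mg/kg in 10% ethanol in corn oil for 5 days, and the vehicle group (3 mice) received the ethanol and corn oil alone; muscle was taken after tests made 10 days later. All were fed a chow with 3.4 IU/g of vitamin D3 and 0.81% calcium. The labels also describe tamoxifen-treated Vdrfl/fl mice without Cre, which were not analysed here, so receptor deletion, active Cre and tamoxifen cannot be told apart in this comparison.

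Complexes II, III and IV pass electrons from succinate and ubiquinol through cytochrome c to oxygen, and complex V, the ATP synthase, uses the proton gradient that complexes III and IV help to build. Complex II is encoded wholly in the nucleus, while complexes III, IV and V also contain subunits encoded by mitochondrial DNA. Several complex IV subunits exist in a form found in most tissues and a form enriched in striated muscle: Cox6a1 and Cox6a2, Cox7a2 and Cox7a1, and Cox8a and Cox8b, the muscle form named last in each pair. NRF1, the ETS family factor GABP and the estrogen-related receptors are known regulators of these genes, and slow and other oxidative fibres hold more mitochondria than the glycolytic fibres that make up most of the gastrocnemius.

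Promoter windows in RefSeq (build GRCm38.p6, from 250 bases before to 50 bases after the gene start) matched 34 of the 47 members that were expressed well enough to be tested. Both strands were searched for the long NRF1 palindrome, for its core GCATGCGC, which lies within it, and for CCGGAAG (ETS family), AAGGTCA (estrogen-related receptors), CAGCTG (E-box), AAGATGGC (YY1) and the MEF2 consensus. The NRF1 core was in 8 of the 34 (23.5%), against 3.05% of all gene symbols in the table, and the longer NRF1 motif in 4 (11.8%, against 1.07%). The ETS motif was in 12 (35.3%, against 9.93%) and the estrogen-related receptor motif in 5 (14.7%, against 5.38%). The E-box was in 2 (5.88%, against 18.3%), YY1 in 2 (5.88%, against 3.19%) and MEF2 in 0 (against 0.636%). None of the motifs was in 15 of the 34. Among the 12 Cox genes matched, the NRF1 core was in 1, ETS in 3 and the estrogen-related receptor motif in 0. The 34 had passed the expression filter, while the comparison took in all 27025 symbols, expressed in muscle or not. The 2 sets were therefore not matched for expression. A match describes these letters only. The following 5 windows are printed 5′ to 3′ on the gene's strand, with matches in capitals, because they cover one muscle form and its ubiquitous partner (Cox8b, Cox8a), a second ubiquitous form (Cox6a1), cytochrome c (Cycs) and the ATP synthase e subunit (Atp5k), whose window holds NRF1, ETS and estrogen-related receptor matches together.
Cox8b: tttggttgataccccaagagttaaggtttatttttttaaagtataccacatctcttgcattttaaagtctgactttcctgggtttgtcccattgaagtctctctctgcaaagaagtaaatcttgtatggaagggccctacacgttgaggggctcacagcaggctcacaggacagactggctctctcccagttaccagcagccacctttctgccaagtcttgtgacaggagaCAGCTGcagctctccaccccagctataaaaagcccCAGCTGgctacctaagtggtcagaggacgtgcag
Cox8a: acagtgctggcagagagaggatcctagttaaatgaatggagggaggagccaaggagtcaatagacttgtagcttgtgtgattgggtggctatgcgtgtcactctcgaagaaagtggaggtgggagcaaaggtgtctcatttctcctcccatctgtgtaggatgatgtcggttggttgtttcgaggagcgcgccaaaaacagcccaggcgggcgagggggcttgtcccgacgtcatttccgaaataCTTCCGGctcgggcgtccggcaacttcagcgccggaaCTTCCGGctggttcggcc
Cox6a1: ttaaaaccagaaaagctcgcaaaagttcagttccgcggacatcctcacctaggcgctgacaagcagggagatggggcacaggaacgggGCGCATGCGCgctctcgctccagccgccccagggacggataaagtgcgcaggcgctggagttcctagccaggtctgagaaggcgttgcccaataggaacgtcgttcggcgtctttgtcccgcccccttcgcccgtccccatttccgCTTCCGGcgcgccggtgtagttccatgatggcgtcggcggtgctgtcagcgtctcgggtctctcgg
Cycs: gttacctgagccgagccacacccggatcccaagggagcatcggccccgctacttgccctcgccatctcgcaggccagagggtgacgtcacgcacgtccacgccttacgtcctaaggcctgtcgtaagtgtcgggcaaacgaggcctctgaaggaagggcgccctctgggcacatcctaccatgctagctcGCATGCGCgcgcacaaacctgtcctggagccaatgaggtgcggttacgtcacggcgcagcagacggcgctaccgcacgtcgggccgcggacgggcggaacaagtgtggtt
Atp5k: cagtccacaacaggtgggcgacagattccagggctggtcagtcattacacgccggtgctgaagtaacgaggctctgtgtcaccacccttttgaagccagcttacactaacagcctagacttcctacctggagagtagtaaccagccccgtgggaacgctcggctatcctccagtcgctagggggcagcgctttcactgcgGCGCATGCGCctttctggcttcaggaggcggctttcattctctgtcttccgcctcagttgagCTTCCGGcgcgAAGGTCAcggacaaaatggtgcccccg

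The Cox8b window (chr7:140900397-140900696, minus strand) holds 2 E-boxes, beginning 19 bases before and 17 bases after the start. The Cox8a window (chr19:7217567-7217866, minus strand) holds 2 ETS matches, 5 bases before and 33 bases after the start. In the Cox6a1 window (chr5:115348909-115349208, minus strand) the longer NRF1 motif begins 162 bases and an ETS match 16 bases before the start. The Cycs window (chr6:50566520-50566819, minus strand) holds the NRF1 core 60 bases before the start, and in the Atp5k window (chr5:108434350-108434649, minus strand) the longer NRF1 motif lies 50 bases before, the ETS match 13 bases after and the estrogen-related receptor match 24 bases after the start. Cox7a1 and Cox7a2 had none of the motifs searched, and Cox6a2 was not matched in the table.

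Library totals ran from 30486874 to 39909535 reads. Vdr, the targeted gene, had 52, 27 and 40 reads in knockout replicates 1 to 3 and 46, 48 and 61 in the vehicle replicates (log2 fold change -0.37, SE 0.37; edgeR adjusted p = 0.848), and a gene-level count is a weak check of the loss of a single exon. Fast-twitch markers were abundant in every library, with the 14 genes of that list summing to 108752 to 249653 CPM (counts scaled to a common library size) in knockout and 204109 to 230363 in vehicle libraries. Knockout replicate 2 stood apart: it had the fewest reads, its 10 most abundant genes took 15.1% of reads against 20.8% to 25.2% elsewhere, and it had the lowest fast-twitch sum. The main results are therefore given with and without it.

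No member differed between knockout and vehicle beyond the spread between mice, although nearly all had a higher estimate in knockout. After a filter on low counts, 47 of the 49 members were tested. The other 2 were the testis forms Cox7b2, with 1 read in vehicle replicate 3 and 0 elsewhere, and Cox8c, with 0 reads in every library, where 3 reads would have amounted to 0.0752 to 0.0984 CPM. With edgeR's quasi-likelihood test, adjusted over 15583 genes, 0 of 47 members had an adjusted p below 0.05, beside 0.0% of all genes tested, and the smallest adjusted p of a member was 0.665. At an unadjusted p below 0.05 there was 1 member of 47, against 7.44% of all genes (4.02% in the higher direction), and DESeq2 likewise called 0 members, against 0.77% of all genes. Estimates were higher in knockout for 44 members and lower for 3, against 52.9% higher among all genes, and the median log2 fold change was 0.285 for the members and 0.021 for all genes tested. In a bulk sample a larger share of a fibre type and more RNA per fibre cannot be told apart.

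The 95% intervals of the log2 fold change set how large a change could have gone undetected. They included 0 for 46 of 47 members. Upper bounds passed 1, a doubling, for 10 members, and 0 members had a lower bound below -1. The exception was Atp5sl, whose interval was 0.012 to 0.83. The groups did not overlap in 1 member, again Atp5sl, whereas this held for 12.3% of all genes, and with knockout higher for 5.83%.

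**Figure D1:**
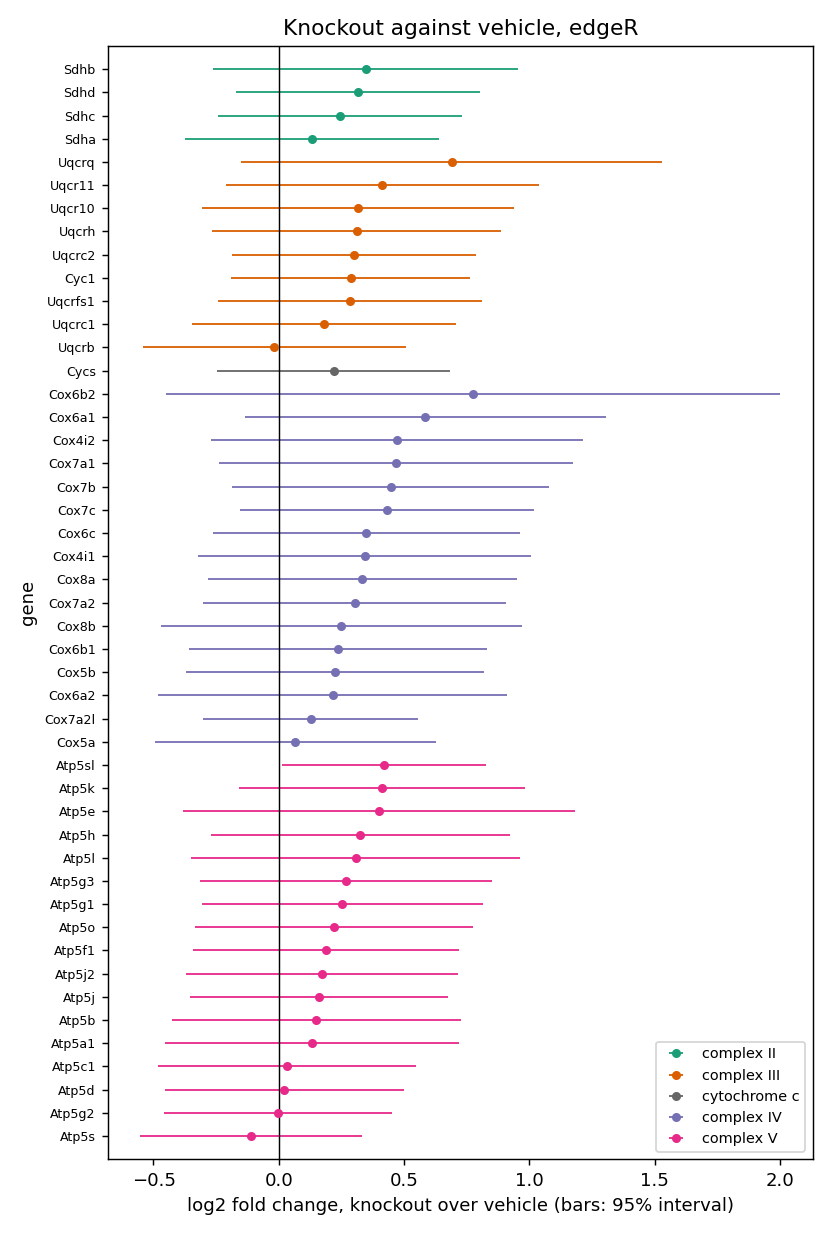
Log2 fold change of knockout over vehicle (x axis) for each of the 47 members tested (y axis), coloured by complex, with 95% intervals from edgeR as bars (3 mice per group). All intervals but that of Atp5sl cross 0, and 44 of the 47 estimates lie above it.

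The members moved together from library to library, and the extremes lay in 1 library of each group. Knockout replicate 2 had the highest CPM for 40 of 47 members, against 27.6% of all genes, and vehicle replicate 2 had the lowest for 42 of 47, against 14.9% of all genes. Both held for 37 members. The level in knockout replicate 2 was a median 1.52 times the mean of the other 5 libraries, ranging from 0.962 for Sdha to 2.47 for Uqcrq, and it was above that mean for 46 of 47. Within the vehicle group alone, replicate 1 exceeded replicate 2 for 46 of 47 members, by a median of 1.37-fold. Expressed as the deviation from the mean log2 CPM of the 6 libraries, the median over the members stood at 0.015, 0.52 and -0.16 for the knockout libraries in replicate order and at 0.036, -0.41 and -0.0047 for the vehicle libraries. Knockout replicate 3 thus lay below vehicle replicates 1 and 3.

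**Figure D2:**
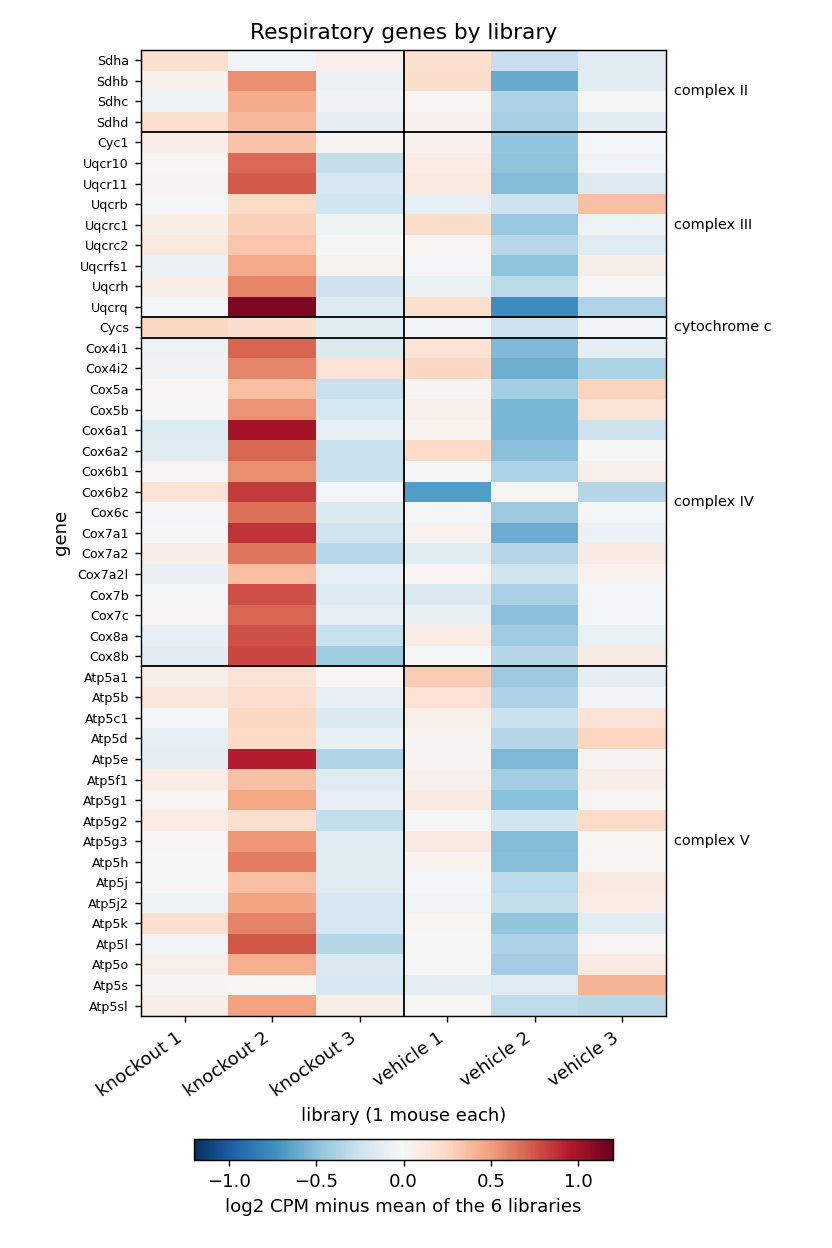
Each row is a member and each column a library of 1 mouse; colour is log2 CPM minus the mean of the 6 libraries, and the vertical line separates knockout from vehicle. The column for knockout replicate 2 is high for 46 of 47 members and that for vehicle replicate 2 is low for 46 of 47, while the other 4 columns stay nearer to 0.

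Leaving out either extreme library lowered the member median. Without knockout replicate 2, 31 of 47 members had a higher estimate (52.2% of all genes in that fit) and their median log2 fold change fell to 0.054. Without vehicle replicate 2 the values were 40 of 47 (53.2% of all genes) and 0.13. The count of members past the adjusted threshold was 0 in these fits and in the 4 that left out another library, where the median ran from 0.33 to 0.397. Together the members took 2.52%, 4.15% and 2.59% of reads in the knockout and 2.73%, 1.98% and 2.57% in the vehicle libraries.

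Complex II (succinate dehydrogenase) links the tricarboxylic acid cycle to the chain. All 4 subunits had a higher estimate, with 0.28 as the median log2 fold change, and none passed. Sdhd, a membrane anchor of the complex, stood at 441, 502 and 356 CPM in knockout and 399, 291 and 352 in vehicle replicates 1 to 3, so the groups overlapped (log2 fold change 0.32, SE 0.22; edgeR adjusted p = 0.769). Sdhb, the iron-sulfur subunit, was at 541, 770 and 497 CPM against 605, 343 and 474, with both the highest and the lowest of the other 5 libraries in the vehicle group (log2 fold change 0.35, SE 0.27). Sdhc, the other anchor, was at 291, 412 and 293 CPM against 306, 234 and 301 (log2 fold change 0.24, SE 0.22). Sdha, the flavoprotein that oxidises succinate, had the smallest excess in knockout replicate 2: at 1240.5, 1059 and 1133 CPM in knockout and 1243, 897 and 990 in vehicle libraries, it was highest in vehicle replicate 1 (log2 fold change 0.13, SE 0.23).

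Complex III had 8 of 9 estimates higher and a median of 0.299. Uqcrq, a small structural subunit, had the widest range of log2 CPM over the 6 libraries among the 47 members. It stood at 183, 402 and 166 CPM in knockout and 212, 110 and 144 in vehicle replicates 1 to 3, so knockout replicate 2 was far above and the other knockout libraries lay within the vehicle range. Its log2 fold change was 0.69 (SE 0.37; edgeR adjusted p = 0.714), and 0.17 without knockout replicate 2. Uqcr11, also small, likewise was highest in knockout replicate 2 and lowest in vehicle replicate 2. It stood at 300.4, 488 and 256 CPM against 318, 205 and 261 (log2 fold change 0.41, SE 0.28). The core protein gene Uqcrc2 was steadier at 917, 1071 and 846 CPM against 862, 674 and 768 (0.299, SE 0.22). Cyc1, which carries cytochrome c1, the Rieske protein gene Uqcrfs1, the hinge protein gene Uqcrh, Uqcr10 and the second core protein gene Uqcrc1 had estimates between 0.18 and 0.32, with adjusted p values of 0.789 to 0.887. Uqcrb, which binds near the quinone site, was highest in vehicle replicate 3 and had an estimate of -0.018 (SE 0.23), a sign that turned to 0.090 when libraries were scaled by totals alone.

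Cycs, somatic cytochrome c, was at 635, 623 and 486 CPM in knockout and 526, 450 and 523 in vehicle libraries. It was the only member highest in knockout replicate 1, and knockout replicate 3 lay below vehicle replicates 1 and 3. The log2 fold change was 0.22 (SE 0.21; edgeR adjusted p = 0.834).

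Complex IV (cytochrome c oxidase) followed knockout replicate 2 most closely: that library was highest for all 16 members tested, and the complex median deviation there was 0.69, against 0.42 to 0.46 for complexes II, III and V. All 16 estimates were higher, with a median of 0.34 that fell to 0.011 without knockout replicate 2. The shortest members, Cox8b (362 bases) and Cox7a1 (364 bases), belong to complex IV, as does Cox6c at 3567 bases. The excess in knockout replicate 2 went with short gene length, as described below. A part of gene length in the contrast between complexes was not tested. The small subunit gene Cox7c stood at 413, 662 and 383 CPM in knockout and 384, 290 and 407 in vehicle libraries (edgeR log2 fold change 0.43, SE 0.26, adjusted p = 0.740). Cox7b was at 687, 1192 and 620 CPM against 618, 531 and 685 (0.45, SE 0.28). In both genes knockout replicates 1 and 3 lay within or next to the vehicle range. Among the remaining subunits, Cox5a had the lowest estimate at 0.066, and Cox7a2l, which acts in assembling complexes III and IV into supercomplexes, was at 0.13. Cox6b2, a testis form present at 7 to 25 reads, had the highest at 0.78 (SE 0.55). The estimate of Cox5a was -0.11 and that of Cox7a2l -0.041 without knockout replicate 2.

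The muscle forms of complex IV dominated the ubiquitous forms at 2 of the 3 paired positions. Per length, in deposited FPKM averaged over the 6 libraries, Cox8b was highest of complex IV at 1814, and Cox6b1, whose testis form is Cox6b2, was second at 1426. Among the Cox4, Cox6a, Cox7a and Cox8 pairs, Cox8b was followed by Cox7a1 at 1257 and Cox6a2 at 1241, then Cox7a2 at 552 and Cox4i1 at 542, and far below them Cox8a at 38.7, Cox6a1 at 23.1 and Cox4i2, the hypoxia-responsive form of Cox4, at 3.16. The order of Cox7a1 and Cox6a2, and that of Cox7a2 and Cox4i1, differed from library to library. These rankings rest on the listed lengths, which were 362 bases for Cox8b, 505 for Cox6b1 and 3567 for Cox6c. By mean CPM, without regard to length, Cox6c was highest of complex IV at 872. Cox6b1 was then at 714 and Cox8b at 648. The FPKM ratio of muscle to ubiquitous form was 44.7 to 66.2 for Cox6a2 over Cox6a1 and 41.7 to 52.9 for Cox8b over Cox8a, whereas that of Cox7a1 over Cox7a2 was only 1.87 to 2.59. These genes lie apart: Cox6a2 on chromosome 7 from 128205436 to 128206366, Cox7a1 on chromosome 7 from 30184171 to 30186028 and Cox8b on chromosome 7 from 140898943 to 140900446, and their partners Cox6a1, Cox7a2 and Cox8a on chromosomes 5, 9 and 19 (mm10).

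Balance between the forms was compared as the log2 ratio of their read counts within each library, which no scaling between libraries can alter. For Cox6a2 over Cox6a1 it was 5.72, 5.39 and 5.53 in knockout replicates 1 to 3 and 5.89, 5.76 and 5.95 in the vehicle replicates. Every knockout library lay below every vehicle library, with means of 5.55 ± 0.168 and 5.87 ± 0.101 (SD, n = 3 each) and a difference of -0.32 (exact two-sided permutation test, p = 0.10, the smallest that 3 against 3 allows; 0.30 adjusted over the 3 pairs). Knockout replicate 1 (5.72) and vehicle replicate 2 (5.76) were nearly level. The difference does not pass the threshold, and was -0.24 without knockout replicate 2.

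Both forms had a higher estimate in knockout, the ubiquitous one more so. Cox6a1 was at 13.3, 29.8 and 13.9 CPM in knockout and 15.3, 10.2 and 12.5 in vehicle libraries (edgeR log2 fold change 0.58, SE 0.32, adjusted p = 0.717). Cox6a2 was at 701, 1251 and 645 CPM against 912, 550.0 and 777 (0.21, SE 0.31, adjusted p = 0.901), an estimate that turned to -0.15 without knockout replicate 2. Cox6a1 reads numbered 371 to 1031 per library, and the part of counting error in the ratio was not tested.

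The other pairs showed no separation. For Cox7a1 over Cox7a2 the log2 count ratio was 0.0093, 0.32 and 0.18 in knockout and 0.28, -0.15 and -0.071 in vehicle libraries, a difference of 0.15 (exact two-sided permutation test, p = 0.40; 0.40 adjusted). For Cox8b over Cox8a it was 4.93, 4.99 and 4.79 against 4.86, 5.04 and 5.14, a difference of -0.11 (exact two-sided permutation test, p = 0.40; 0.40 adjusted). Groups overlapped in each pair. In these small groups a p of this size does not show that the balance was alike.

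**Figure D3:**
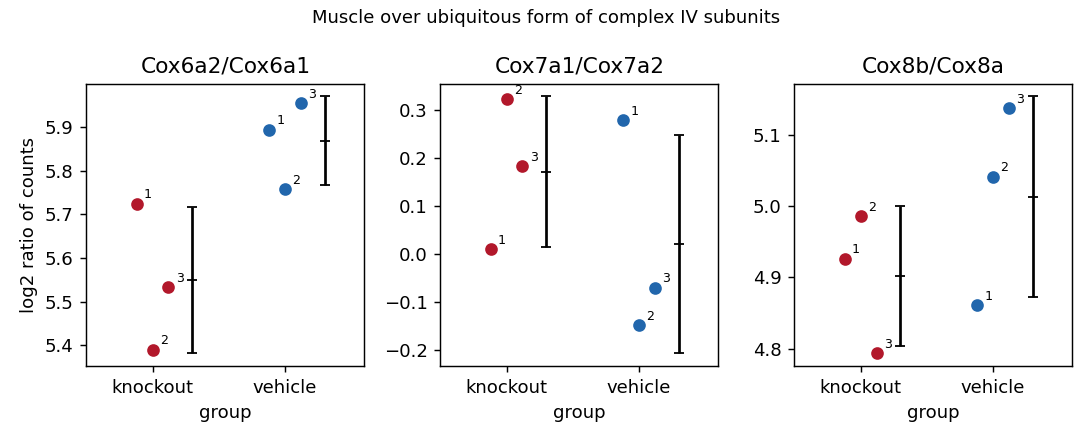
Log2 ratio of read counts of the muscle form over the ubiquitous form (y axis, its own scale in each panel) by group; points are single libraries with their replicate number and black bars are mean ± SD (n = 3). The knockout points lie below the vehicle points for Cox6a2 over Cox6a1 (5.39 to 5.72 against 5.76 to 5.95), and the groups overlap for the other 2 pairs.

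Levels of the single paralogs followed the library pattern. Cox7a1 stood at 425, 781 and 362 CPM in knockout and 442, 283 and 408 in vehicle libraries (log2 fold change 0.47, SE 0.31), and Cox7a2 at 422, 624 and 318 against 364, 314 and 429 (0.303, SE 0.27). Cox8b was at 570.3, 1079 and 462 CPM against 619, 491 and 666 (0.25, SE 0.32), with knockout replicate 3 the lowest of all 6 libraries, and its estimate was -0.20 without knockout replicate 2. Cox8a was at 18.8, 34.1 and 16.6 CPM against 21.3, 14.9 and 18.9 (0.33, SE 0.27), with -0.054 without that library. In all 4 genes knockout replicate 2 was highest and the groups overlapped. Cox4i1, the common Cox4 form, was at 767, 1299 and 708 CPM against 893, 553 and 742 (0.34, SE 0.297). Cox4i2 was at 2.30, 3.59 and 2.67 CPM against 2.82, 1.56 and 1.80 (0.47, SE 0.33). edgeR adjusted p values for these 6 genes were between 0.767 and 0.886.

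Complex V had 15 of 17 estimates higher and a median of 0.19. In the catalytic F1 part 4 of the 5 estimates were at 0.15 or below: Atp5a1 and Atp5b, which encode the alpha and beta subunits and were the members with the most reads, were at 0.13 (SE 0.26) and 0.15 (SE 0.26), and Atp5c1 and Atp5d, for gamma and delta, at 0.033 and 0.022. Atp5b stood at 3703, 3855 and 3143 CPM in knockout and 3781, 2592 and 3275 in vehicle libraries. Atp5e, for epsilon, differed from these at 525, 1089 and 442 CPM against 583, 392 and 583, an excess of 2.16-fold in knockout replicate 2 over the mean of the other libraries, beside 1.17-fold for Atp5b and 1.12-fold for Atp5a1. Without knockout replicate 2 the estimate was -0.103 for Atp5e, -0.093 for Atp5c1 and -0.098 for Atp5d, and without vehicle replicate 2 it was -0.035 for Atp5a1.

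In the membrane part and stalk, Atp5k (subunit e) was at 567, 752 and 432 CPM in knockout and 506, 359 and 451 in vehicle libraries (edgeR log2 fold change 0.41, SE 0.25, adjusted p = 0.748), and knockout replicate 3 lay within the vehicle range. Atp5h (subunit d) was at 513, 786 and 464 CPM against 528, 361 and 518 (0.33, SE 0.27). The genes for subunit c, the rotor ring, had estimates of 0.25 for Atp5g1, 0.27 for Atp5g3 and -0.0028 for Atp5g2, the last turning to 0.098 when libraries were scaled by totals alone. Atp5l, Atp5o, Atp5f1, Atp5j and Atp5j2, for subunit g, the oligomycin-sensitivity protein and subunits b, F6 and f, lay between 0.16 and 0.31.

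Members named by the rule but not structural subunits of the enzyme were Atp5s (coupling factor B) and Atp5sl (its paralog). Atp5sl stood at 38.5, 51.1 and 38.4 CPM in knockout and 37.0, 29.6 and 29.1 in vehicle libraries, so that every knockout library lay above every vehicle library; the closest were knockout replicate 3 and vehicle replicate 1. Its log2 fold change was 0.42 (SE 0.18), with an unadjusted p of 0.045 and an edgeR adjusted p of 0.665. Estimates without 1 library ran from 0.27 to 0.54. Atp5s was at 16.2, 16.0 and 13.9 CPM against 14.5, 14.1 and 21.0 (-0.11, SE 0.197), with vehicle replicate 3 the highest.

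Slow-twitch fibre genes differed far more between libraries than the respiratory members. The 13 genes of that list, all above the filter and none at 0, summed to 11915 to 47907 CPM in knockout and 3725 to 17467 in vehicle libraries. Their mean deviation was 0.068, 2.29 and 0.69 in knockout and 0.73, -1.79 and -1.98 in vehicle replicates 1 to 3. Knockout replicate 2, highest in the members, was also highest in these genes, and vehicle replicate 2 was low in both. Vehicle replicate 3 had the lowest mean deviation in slow-twitch genes, although vehicle replicate 2 had the lowest sum, and was near the mean in the members, at -0.0047, and knockout replicate 3 was above the mean in slow-twitch genes and below it in the members. With the list mean as a covariate in edgeR, 14 of 47 members had a higher estimate (51.0% of all genes in that fit), the median log2 fold change was -0.072 and 0 passed. The list mean was itself higher on average in knockout, so this fit takes part of the group difference into the covariate. Estimates were higher in knockout for 13 of 13 slow-twitch genes, with a median log2 fold change of 1.82, against 52.9% of all genes. At an unadjusted edgeR p below 0.05 there were 2 (15.4%, against 7.44% of all genes), and 0 passed after adjustment. For the fast-twitch list 12 of 14 estimates were lower, with a median of -0.34.

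**Figure D4:**
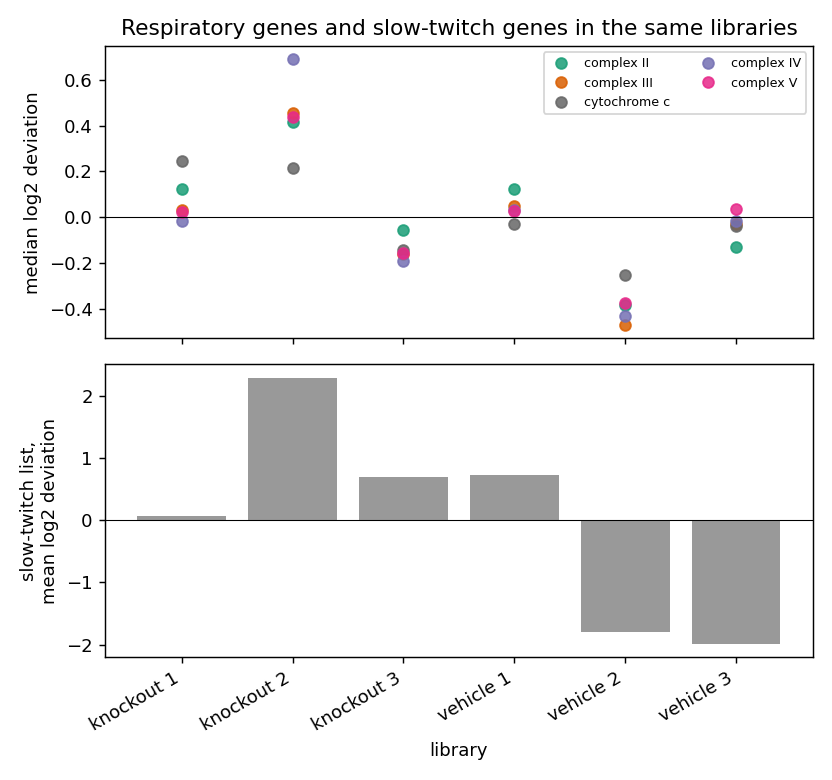
Upper panel, median deviation of log2 CPM from the 6-library mean for the members of each complex (points) in each library; lower panel, mean deviation of the 13 slow-twitch genes (bars). Knockout replicate 2 is high in both panels, while vehicle replicate 3 is at -1.98 in slow-twitch genes and between -0.13 and 0.037 for the complexes.

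Other cell markers gave these sums, for which a part in the results was not tested: the adipocyte list (9 genes) 282 to 804 CPM in knockout and 234 to 344 in vehicle, macrophage (9 genes matched of 10) 49.2 to 155 and 39.4 to 70.5, blood (7) 531 to 3186 and 604 to 3609, endothelium (7) 247 to 281 and 194 to 282, and Schwann and nerve (5) 69.3 to 113 and 96.8 to 180. No marker of these lists was at 0 in all libraries. Estimates were higher in knockout for 9 of 9 macrophage genes (7 at an unadjusted p below 0.05) and for 8 of 8 adipocyte genes tested (6 at an unadjusted p below 0.05), against 52.9% and 7.44% of all genes, and for 0 of 5 Schwann and nerve genes (median log2 fold change -0.63, 0 at an unadjusted p below 0.05). None of these genes passed with edgeR's adjustment. The blood sum was highest in vehicle replicate 2 and next in knockout replicate 2. Of the 7 blood genes, 5 were highest in vehicle replicate 2 and 2 in knockout replicate 2.

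The excess in knockout replicate 2 went with gene length. Its ratio to the mean of the other 5 libraries had a median log2 of 0.801 for the 14 members with a listed length under 1000 bases, 0.592 for the 18 from 1000 up to 2000 bases and 0.42 for the 15 of 2000 bases or more. Other protein-coding genes in the same classes had medians of 0.42 (531 genes), 0.15 (1891 genes) and -0.067 (10776 genes), each below that of the members. The classes are wide, so lengths within a class were matched only roughly. Abundance was not matched: the median FPKM in knockout replicate 2 was 473 for the members and 3.19 for all other genes tested. Across the 47 members, log2 length and log2 ratio correlated with Pearson's r = -0.52 and Spearman's rho = -0.56, as a description of 1 library against the rest in which all points share the same libraries. Over 13142 other protein-coding genes the values were -0.21 and -0.25. A part of gene length in the result was not tested.

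**Figure D5:**
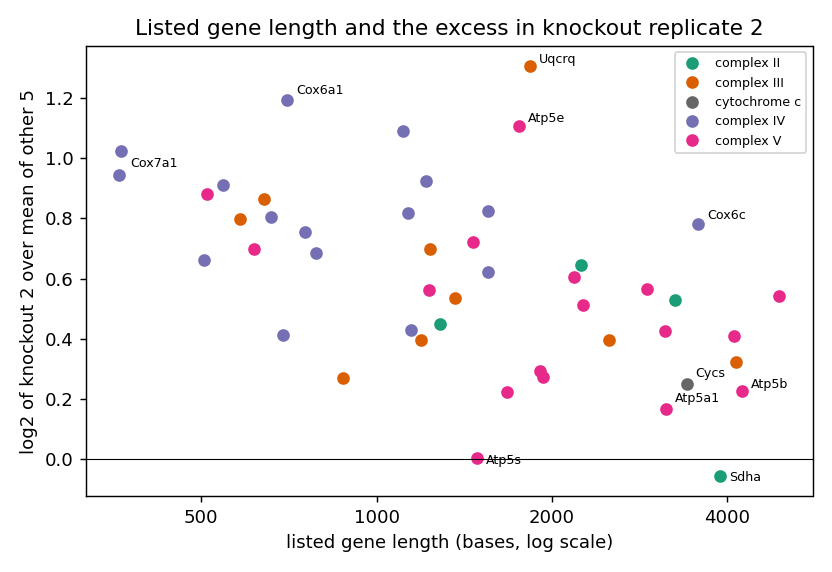
Listed gene length in bases (x axis, log scale) against the log2 ratio of CPM in knockout replicate 2 to the mean of the other 5 libraries (y axis), 1 point per member, coloured by complex. Short genes such as Cox7a1 lie high, and Sdha, Atp5a1 and Atp5b, among the longer, lie between -0.056 and 0.22, while Uqcrq and Atp5e lie above members of their length.

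Genes that serve the complexes without belonging to them were described from lists. Of 38 assembly factors of complexes II to V, 36 were matched and all of these tested. Of these 0 passed, and 24 estimates were higher and 12 lower (66.7% higher, against 52.9% of all genes). Their median was 0.091 on the log2 scale, beside 0.285 for the members and 0.021 for all genes tested. The 3 of smallest p were Coa4 at 0.504 (SE 0.29), Cox19 at 0.47 (SE 0.27) and Cox10 at 0.29 (SE 0.18), with edgeR adjusted p values of 0.73 to 0.74. Cox10 takes part in making the heme a of complex IV. Knockout replicate 2 was highest for 14 of the 36 (38.9%, against 27.6% of all genes). The 37 complex I subunits, given for comparison, had 33 higher estimates (89.2%, against 52.9% of all genes), a median of 0.16 and 0 past the threshold. They shared the library pattern, with knockout replicate 2 highest for 30 of 37 (81.1%, against 27.6% of all genes). Vehicle replicate 2 was lowest for 30 of 37 (against 14.9% of all genes). The 6 mitochondrially encoded subunits of complexes III to V were at 0 in every library, as were all 37 genes listed on that chromosome, and can give no value.

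Of 18 transcriptional regulators of respiratory genes, all tested, 0 passed the adjusted threshold. At an unadjusted edgeR p below 0.05 there were 4 (22.2%, against 7.44% of all genes), each with a higher estimate. The groups did not overlap in 16.7% of the regulators, against 12.3% of all genes: Esrra and Gabpa were higher in knockout and Nrf1 lower. Ppara, a fatty acid-activated receptor, was at 25.6, 37.5 and 37.2 CPM in knockout and 25.9, 15.3 and 8.69 in vehicle libraries, with vehicle replicate 1 just above knockout replicate 1 (log2 fold change 1.01, SE 0.36; edgeR adjusted p = 0.640). Esrra, the estrogen-related receptor alpha, was at 59.2, 77.9 and 58.6 CPM against 58.4, 37.1 and 38.4 (0.55, SE 0.22; edgeR adjusted p = 0.645), so that the groups did not overlap, with knockout replicate 3 and vehicle replicate 1 nearly level. Esrrb was at 11.7, 32.4 and 17.1 CPM against 15.5, 5.54 and 6.50 (1.16, SE 0.48). Gabpa, the DNA-binding subunit of GABP, was at 34.3, 33.2 and 34.6 CPM against 29.4, 27.8 and 21.9 (0.37, SE 0.16), and its gene overlaps that of the member Atp5j.

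With the slow-twitch mean as a covariate the estimates were 0.38 for Ppara, 0.12 for Esrra, 0.039 for Esrrb and 0.26 for Gabpa. Ppargc1a, the coactivator that drives mitochondrial biogenesis, did not separate the groups at 53.6, 68.6 and 76.0 CPM against 62.3, 65.3 and 62.3 (0.062, SE 0.17). Nrf1 was at 11.05, 10.94 and 10.98 CPM against 12.5, 13.0 and 11.5, lower in every knockout than in every vehicle library (-0.16, SE 0.16; edgeR adjusted p = 0.844), and Tfam, which maintains and transcribes mitochondrial DNA, had an estimate of 0.17 (SE 0.16). Knockout replicate 3, with the highest Ppargc1a level, had the second lowest member median.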

How the data were processed

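RNA of 6 gastrocnemius samples, 3 per group, was sequenced from polyadenylated transcripts (TruSeq Stranded mRNA, per the labels' protocols). Per the submitters' processing notes, STAR 2.6.1c, featureCounts (Subread 1.5.1) and mm10 were used; for annotation release and strand setting, nothing was given in the sources used here. The deposited table gives a raw read count per gene and library, and an FPKM, which the authors' file header names and which equalled the count per kilobase of listed length (plus 1 base) and per total of counted reads, to a relative tolerance of 0.0001. Of the 49 members, 16 overlap another listed gene, so their reads could be mixed if strand was ignored, and close paralogs and pseudogenes can share reads.

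Groups came from the phenotype label; replicate numbers are only names. In R 4.3.3, edgeR 4.0.16 tested knockout against vehicle on counts, two-sided (filterByExpr, minimum count 10 and total 15, leaving 15583 genes; TMM factors 0.912 to 1.13; robust quasi-likelihood fit), adjusted by Benjamini-Hochberg, threshold 0.05. CPM use TMM-scaled totals; deviations use log2 CPM with a prior count of 2. SE values follow from the F statistic. No library pair agreed within sampling noise. The p-values set the difference between groups against the spread between mice. Alternatives used DESeq2 1.42.0 and limma 3.58.1. The fit was checked on simulated counts.

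Members and lists were chosen with earlier results of these data known. Values by library are given for paralog pairs, Cycs and the 3 members of smallest p per complex; lower estimates and untested members are named. Other members, and the regulators beyond the 3 of smallest p, Ppargc1a, Esrra, Nrf1 and Tfam, were named after their values were seen.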

Additional observations from a re-analysis of the deposited data

How the results depend on the processing

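No alternative brought a member past the adjusted threshold: the count of members was 0 under every scaling, filter, tool, threshold and left-out library. Over all genes the count was 0 in edgeR, with 1159 at an unadjusted p below 0.05, 4 with DESeq2 size factors, 29 with no low-count filter, 112 with the DESeq2 Wald test, 4 with limma-voom and sample quality weights, 7 at an adjusted threshold of 0.1 and 0 to 24 when 1 library was left out (24 without knockout replicate 1, 6 without knockout replicate 2). Library totals alone raised the median of all genes to 0.12 on the log2 scale (65.3% of estimates higher, against 52.9%) and that of the members to 0.395; the members lay above all genes by a like amount.

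With the slow-twitch mean as a covariate, 14 members had a higher estimate and the medians were -0.072 for all members, -0.0091 for complex II, -0.030 for complex III, -0.095 for complex IV and -0.057 for complex V. The sign of 32 of 47 estimates turned in that fit, 31 of them from higher to lower. Among the members with values by library or a lower estimate, these were -0.35 for Cox6a2, -0.13 for Cox6a1, -0.093 for Cox7a1, -0.24 for Cox8b, -0.21 for Cox8a, -0.19 for Cox4i1, -0.082 for Cox4i2, -0.11 for Sdhb, -0.037 for Sdhc, -0.15 for Uqcrq, -0.10 for Uqcr11, -0.22 for Atp5e, -0.055 for Atp5h, -0.052 for Atp5b and 0.032 for Atp5s. The cause was not tested. With 1 library left out, members with a higher estimate numbered 31 to 47 and their median was 0.054 to 0.397. The range was 0.13 to 0.38 for complex II, 0.090 to 0.38 for complex III, 0.011 to 0.502 for complex IV and 0.039 to 0.304 for complex V. Leaving out 1 library turned the sign of 17 members at least once. Without knockout replicate 2 there were 13 and without vehicle replicate 2 there were 4, with Atp5c1, Atp5d and Cox5a in both. Atp5g2 and Uqcrb turned without knockout replicate 3, and these and Atp5s without vehicle replicate 3. Among the turned members described by library or with a lower estimate, the ranges were -0.15 to 0.38 for Cox6a2, -0.20 to 0.48 for Cox8b, -0.054 to 0.52 for Cox8a, -0.10 to 0.63 for Atp5e, -0.15 to 0.18 for Uqcrb, -0.22 to 0.096 for Atp5s and -0.12 to 0.12 for Atp5g2. Paralog ratio differences kept their sign: -0.41 to -0.24, 0.068 to 0.28 and -0.19 to -0.049 for the Cox6a, Cox7a and Cox8 pairs.

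Other settings turned 0 to 3 members each. Uqcrb was 0.090 with library totals alone and 0.087 and 0.086 in limma on log2(FPKM + 0.1) and log2(FPKM + 1). Atp5s was 0.0038 and 0.0025 in those limma fits. Atp5g2 was 0.0017 with upper-quartile factors, 0.098 with library totals, 0.00052 with the stricter filter and 0.087 and 0.086 in the limma fits. Cox8b was -0.051 with quality weights, where Atp5c1 and Cox5a also turned, and Atp5d turned in DESeq2. No paired analysis was possible because the labels give the groups no shared replicate numbers. Depth was lowest for Cox8c, Cox7b2, Cox6b2 (7 to 25 reads) and Cox4i2 (57 to 124 reads).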
